A study of Malus x robusta with 27 samples.

Results

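The O-methyltransferases described here were the genes of the apple flower transcriptome whose deposited annotation named the plant O-methyltransferase domain (PF00891), its dimerisation domain (PF08100) or both. There were 54 such genes among 48445 in the table. 51 were models of the HFTH1 apple genome, and 3, all on chromosome 1, had been newly assembled from these reads.

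Plant O-methyltransferases of this family move a methyl group from S-adenosyl-L-methionine to a hydroxyl group of a small molecule such as a phenylpropanoid, a benzenoid or a flavonoid. The methyltransferase domain binds the methyl donor, and the dimerisation domain at the N-terminal end joins the subunits. In flowers, members of the family are known for making lignin precursors and methoxylated scent compounds. The files gave no substrate for any member, so each is described by its domains, position and level.

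The libraries were made from whole flowers of Malus robusta, a crabapple used as an apple rootstock. The strongly fragrant (SF) and weakly fragrant (WF) materials were each 1 individual picked from the progeny of M. robusta, and the third material was standard M. robusta (Mr). The labels named no treatment. Flowers were taken at the early balloon stage (EB, petals not yet opened), the early flowering stage (ES, petals opening, anthers closed) and the late flowering stage (LS, petals open, anthers shedding), with 3 libraries for each of the 9 combinations. The replicates of an SF or WF group therefore came from the same individual, and the labels do not say from which trees the Mr replicates came. Each p-value measured only the spread between these samples, which may be technical.

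Sequencing depth, recovered from the FPKM steps, ran from 16146228 to 29558381 fragments per library, with a median of 19419905. At that depth 3 fragments on a gene of 1 kb were worth an FPKM of 0.095 to 0.193. The summed FPKM of 60 K-box MADS-box genes, the family that holds the floral organ identity genes, was 1718 to 3145, and 59 of the 60 were above 0. In Mr_LS_2, genes otherwise specific to WF stood at a median of 16.2% of their WF level (91 genes) and those specific to SF at 8.69% (115 genes). In SF_LS_1 the corresponding values were 8.75% for WF genes (56 genes) and 5.16% for Mr genes (68 genes). The median was 0 in the other 25 libraries, so results at LS are given with and without these libraries where they differed.

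Of the 54 members, 29 carried both domains, 18 the methyltransferase domain alone and 7 the dimerisation domain alone. They lay on 10 chromosomes, 21 of them on chromosome 1. When members less than 100 kb apart were grouped, 43 fell into 13 clusters and 11 stood alone. 32 members passed the filter on low values, which asked for an FPKM of 1 or more in 3 or more of the 27 libraries. Of the 22 that did not, 12 were at 0 in every library and 10 had some fragments, at most 144 over all libraries (HF29540).  A member that passes through the group in which it is high is likely to differ between groups, so the counts below are read beside the same count over all 29660 genes tested.

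The family was dominated by 1 gene. HF23339, a 423-base model on chromosome 1 (chr1:32239609-32240031, minus strand) that carried the dimerisation domain alone, took 38.75% to 85.72% of the summed FPKM of the 54 members, with a median of 76.34%. By mean FPKM it ranked 18 among all genes of the table. The summed FPKM of the family was 649 to 4104, and without HF23339 it was 222 to 658. Besides HF23339, a newly assembled gene (chr1:31467617-31475760), HF10511 and HF23423 reached a mean FPKM of 100 in at least 1 group, and 19 members reached 10.

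Across the 32 tested members the highest group mean fell at EB in 16, at ES in 10 and at LS in 6. Over all tested genes these shares were 35.7%, 23.6% and 40.8%. By material, the highest mean was in SF for 13 members, in WF for 13 and in Mr for 6, against 28.8%, 33.7% and 37.4% of all tested genes. Neighbouring members tended to have like profiles. The median correlation of log2 group means over the 9 groups was 0.738 for the 31 pairs within a cluster and 0.052 for the other 465 pairs, a description in which all pairs share the same libraries.

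**Figure D1:**
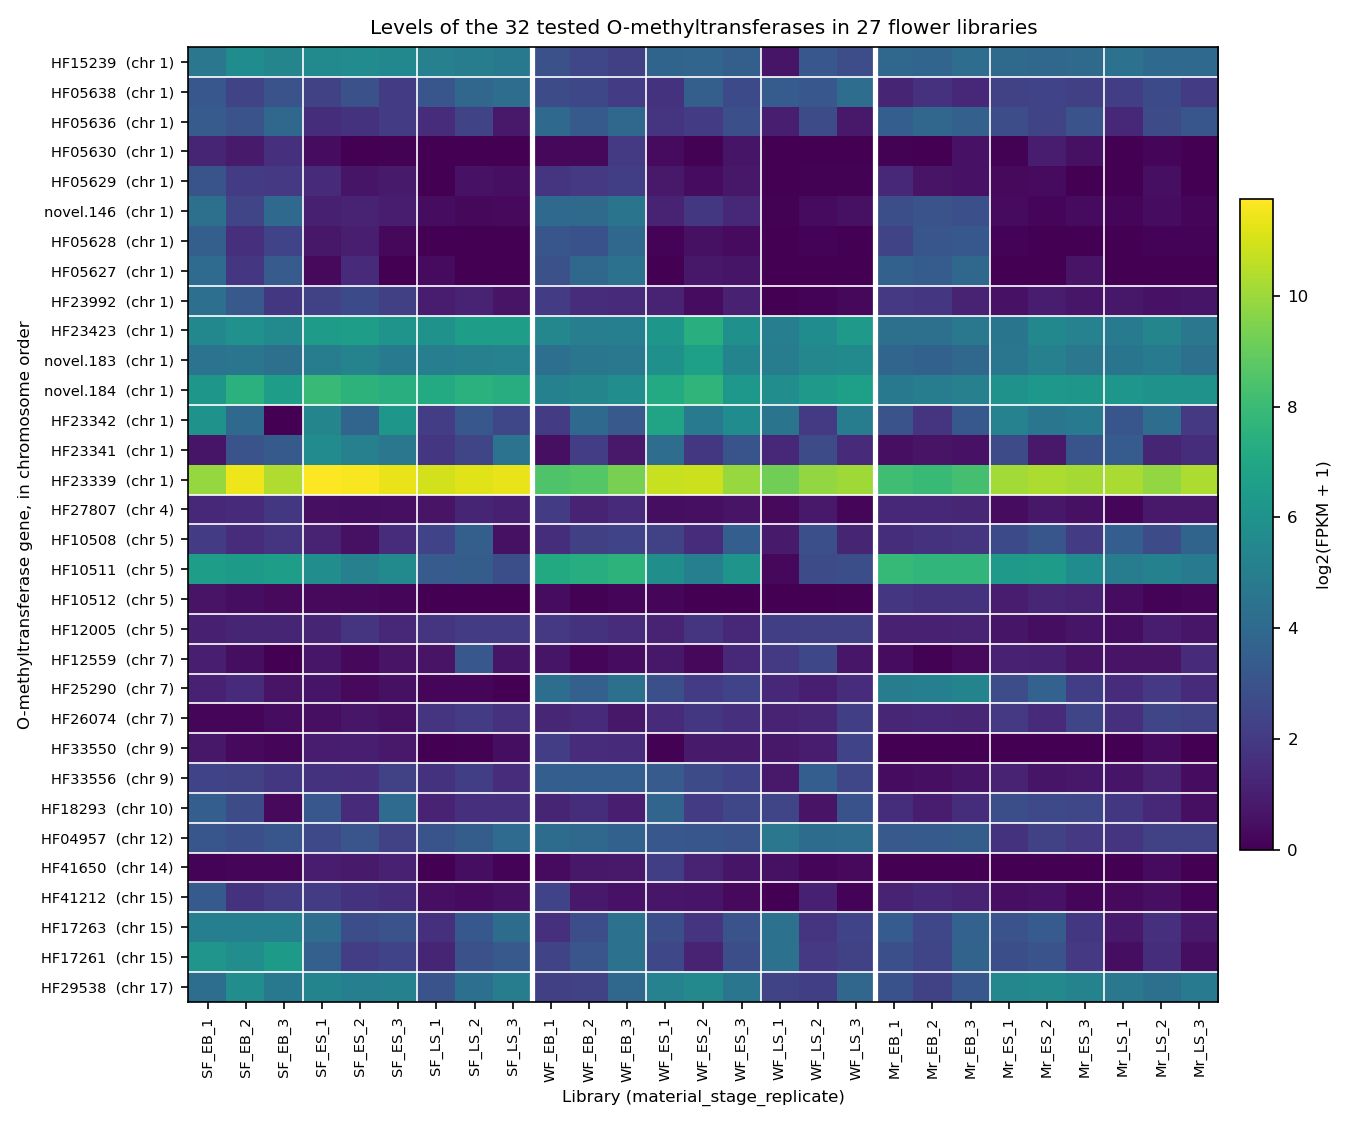
Level of each of the 32 tested O-methyltransferases, as log2(FPKM + 1) by colour, in the 27 libraries ordered by material and stage. White lines part materials, stages and gene clusters. HF23339 is the brightest row in every library, and the chromosome 1 genes from HF05629 to HF05627 are bright mainly in the EB columns.

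HF23339 was highest in SF at every stage. At EB its FPKM was 942, 2813 and 1304 in SF, 361, 408 and 640 in WF, and 281, 252 and 311 in Mr. At ES it was 3445, 3189 and 2630 in SF, 1753, 1857 and 987 in WF, and 1124, 1251 and 1135 in Mr. At LS it was 1997, 2293 and 2622 in SF, 586, 929 and 1061 in WF, and 1207, 918 and 1261 in Mr. The SF libraries lay above all WF and Mr libraries at each of the 3 stages. Tested with limma on log2(FPKM + 1), with p-values adjusted over all 29660 genes, HF23339 was higher in SF than in Mr by 2.43 ± 0.40 (log2, SE) at EB (adjusted p = 0.00587), by 1.39 ± 0.22 at ES (adjusted p = 0.00513) and by 1.03 ± 0.27 at LS (adjusted p = 0.0306). Against WF the differences were 1.73 ± 0.45, 1.06 ± 0.39 and 1.46 ± 0.39, with adjusted p-values of 0.0779, 0.18 and 0.149, so none passed 0.05. In a fit of all 9 groups, which share a single estimate of the spread, the SF to WF differences passed at all stages (adjusted p = 0.000689, 0.0377 and 0.00404). The ES call against Mr was lost when genes were not filtered (adjusted p = 0.0742). The LS call was lost in 5 of 6 fits that left out a library (all but SF_LS_1) and, at an adjusted p of 0.088, without both mixed libraries.

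On the same chromosome, HF23423 (chr1:31465089-31465511, plus strand) again held the dimerisation domain alone in a 423-base model. Beside it, on the opposite strand, lay 2 newly assembled genes with the methyltransferase domain alone, at chr1:31466942-31474918 and chr1:31467617-31475760. Their spans overlapped by 7302 bases on the same strand, so their separate levels are uncertain. The FPKM of the more abundant, at chr1:31467617-31475760, at ES was 246, 192 and 168 in SF, 144, 203 and 76.2 in WF, and 64.8, 75.8 and 72.8 in Mr. SF was thus above Mr in every library but overlapped WF. The SF to Mr difference of this gene was 1.83 ± 0.33 at EB (adjusted p = 0.00787), 1.48 ± 0.16 at ES (adjusted p = 0.00117) and 1.29 ± 0.12 at LS (adjusted p = 0.00191). HF23423 was also above Mr in SF, by 1.23 ± 0.16, 1.29 ± 0.26 and 1.41 ± 0.22 at the 3 stages (adjusted p = 0.00248, 0.0117 and 0.00662). Over the 27 libraries the log2 level of the same newly assembled gene followed that of HF23339 with a correlation of 0.963, the highest of any pair of members in different clusters. HF23339, HF23423 and HF25290 have equal model lengths, and whether they share reads was not tested.

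The first question was which members set the strongly fragrant flowers apart from the weakly fragrant ones. At EB, 7 of the 32 tested members passed an adjusted p of 0.05 between SF and WF (21.9%), against 7.59% of all tested genes. Of these, 2 were higher in SF (background 4.23%) and 5 were lower (background 3.35%). At ES, 5 members passed (15.6%, background 8.14%), 3 of them higher in SF (background 4.43%) and 2 lower (background 3.71%). At LS, 1 member passed (3.12%, background 3.35%), and it was lower in SF (background 1.63%), while no member was higher (background 1.72%). From EB through ES to LS, the 32 members had median log2 differences of 0.13, −0.04 and 0.06, and that of all genes was −0.0044, −0.002 and −0.0061.

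The study listed HF15239, HF23992, HF23341, HF10508, HF26074, HF33556 and HF41212 under O-methyltransferase activity after examining these same libraries, so their differences at ES are not independent evidence. HF15239, a gene with both domains on chromosome 1 (chr1:16098111-16106274, plus strand), was the member most clearly higher in SF. Its FPKM at ES was 47.5, 49.1 and 44.3 in SF, 12.8, 13.3 and 10.6 in WF, and 15.5, 14.8 and 16 in Mr. At EB it was 24.0, 52.3 and 39.1 in SF against 6.49, 4.60 and 3.75 in WF and 14.4, 13.3 and 17.5 in Mr. The groups did not overlap at either stage. The SF to WF difference was 2.69 ± 0.31 at EB (adjusted p = 0.00649) and 1.86 ± 0.11 at ES (adjusted p = 0.00054), and both calls held when any 1 library was left out. At LS the values were 34.0, 29.6 and 25.6 in SF and 0.587, 8 and 5.87 in WF, a difference of 2.73 ± 0.66 that did not pass (adjusted p = 0.116). Without WF_LS_1, the library with the lowest value, the difference was 1.96 with an adjusted p of 0.0298. HF15239 was also higher in SF than in Mr, by 1.24 ± 0.28 at EB, 1.55 ± 0.08 at ES and 0.80 ± 0.16 at LS (adjusted p = 0.0175, 0.000119 and 0.0131). The EB call against Mr was lost without Mr_EB_1 or Mr_EB_2. The LS call was lost without SF_LS_2 and, at an adjusted p of 0.069, without both mixed libraries.

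HF17261 and HF17263, neighbours on chromosome 15 (chr15:51974666-52010805, plus strand) with both domains, were high in SF flowers at the balloon stage. The FPKM of HF17261 at EB was 69.7, 52.8 and 84.8 in SF, 4.34, 7.63 and 19.7 in WF, and 6.26, 4.54 and 12.5 in Mr. That of HF17263 was 32.3, 33.0 and 33.2 in SF, 2.04, 5.82 and 20.6 in WF, and 9.67, 4.74 and 11.9 in Mr. For both genes the SF libraries lay above all others at EB. HF17261 was higher in SF than in WF by 2.81 ± 0.50 (adjusted p = 0.0259) and than in Mr by 3.08 ± 0.36 (adjusted p = 0.00176). HF17263 passed against Mr (1.87 ± 0.30, adjusted p = 0.00514) but not against WF (2.14 ± 0.67, adjusted p = 0.117). By ES the advantage was gone, with HF17261 at 11.2, 3.41 and 4.10 in SF and 6.03, 7.06 and 2.87 in Mr. The call of HF17261 against WF was lost in 5 of 6 fits without a library. The levels of the 2 genes had a correlation of 0.943 over the 27 libraries, and reads shared between such neighbours were not tested for.

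HF23992 (chr1:25916681-25919146, both domains) and HF41212 (chr15:40917890-40921872, methyltransferase domain alone) were higher in SF than in the other materials at ES. HF23992 stood at FPKM values of 4.05, 5.16 and 3.64 in SF, 1.23, 0.326 and 1.14 in WF, and 0.491, 0.833 and 0.619 in Mr. HF41212 stood at 3.09, 2.34 and 1.88 in SF, 0.664, 0.594 and 0.241 in WF, and 0.398, 0.482 and 0.154 in Mr. Neither gene overlapped between SF and the other materials at ES. At EB, HF23992 was at 18.8, 8.74 and 2.75 in SF and between 1.19 and 3.11 in the other materials, and the groups overlapped. Against WF, HF23992 was higher by 1.5 ± 0.24 (adjusted p = 0.0184) and HF41212 by 1.19 ± 0.19 (adjusted p = 0.0167). Against Mr the differences were 1.68 ± 0.16 (adjusted p = 0.000771) and 1.35 ± 0.18 (adjusted p = 0.00248). The calls against WF were lost in 4 of 6 fits without a library for HF23992 and in 3 of 6 for HF41212.

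HF25290 was the member lowest in SF relative to both other materials. It is a 423-base model on chromosome 7 (chr7:27971019-27971441, minus strand) with the dimerisation domain alone, and the study calls it MrOMT1. It was picked there from genes that differed at ES in these same libraries, so its differences at ES are not independent evidence. Its FPKM at EB was 1.14, 1.60 and 0.550 in SF, 17.8, 11 and 18.9 in WF, and 30.9, 32.4 and 38.5 in Mr. At ES it was 0.608, 0.238 and 0.422 in SF, 6.37, 3.22 and 4.18 in WF, and 5.89, 12 and 3.52 in Mr. At LS it was 0.119, 0.145 and 0 in SF, 1.59, 0.994 and 1.83 in WF, and 1.80, 2.82 and 1.61 in Mr. SF lay below both other materials in every library at every stage. Against WF the differences were −3.01 ± 0.28 at EB (adjusted p = 0.00317), −1.94 ± 0.23 at ES (adjusted p = 0.00672) and −1.17 ± 0.16 at LS (adjusted p = 0.0211). Against Mr they were −4.08 ± 0.21, −2.39 ± 0.38 and −1.48 ± 0.18 (adjusted p = 0.000136, 0.00522 and 0.00331). The LS values in SF rested on 2 fragments against 39 in WF, a 16.5-fold ratio with a 95% exact counting interval of 4.28 to 141. The LS call against WF was lost in 5 of 6 fits without a library and with limma-voom on recovered fragments (adjusted p = 0.0518).

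HF41646, the other gene that the study calls MrOMT1, could not be compared. It lies on chromosome 14 (chr14:22186642-22191441, minus strand) and carries both domains and a 2-oxoglutarate-dependent dioxygenase domain. It had 28 fragments over all 27 libraries, was at 0 in 18 of them and reached an FPKM of 0.231 at most, in WF_ES_1. It was not among the 32 tested members. It had 0 fragments in all 9 Mr libraries and 10, 5 and 2 in the 3 WF libraries at ES, and this difference was not tested.

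HF26074 (chr7:35145210-35149950, both domains) was also low in SF before the flower was fully open. At ES its FPKM was 0.384, 0.630 and 0.427 in SF, 1.70, 2.80 and 2.02 in WF, and 2.90, 1.61 and 4.51 in Mr. SF lay below the other materials in every library. The difference at ES was −1.09 ± 0.16 against WF (adjusted p = 0.0138) and −1.37 ± 0.28 against Mr (adjusted p = 0.0118). At EB it was −0.87 ± 0.19 against WF (adjusted p = 0.0505) and −1.02 ± 0.10 against Mr (adjusted p = 0.000883). By LS the SF values were 2.43, 3.25 and 2.23, within the range of 1.2 to 4.41 of the other materials. The ES call against WF was lost in 3 of 6 fits without a library.

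The other members lower in SF than in WF at EB were HF10511, HF33550, HF33556 and HF04957. HF10511 (chr5:25710259-25711568, both domains) stood at FPKM values of 94.6, 84.8 and 94.4 in SF, 139, 161 and 196 in WF, and 231, 210 and 209 in Mr, so that the 3 materials did not overlap. The difference was −0.84 ± 0.15 against WF (adjusted p = 0.0253) and −1.24 ± 0.08 against Mr (adjusted p = 0.000258). HF33556 (chr9:6304307-6313072, both domains) stood at 4.23, 3.81 and 2.77 in SF, 10.5, 10.6 and 10.3 in WF, and 0.327, 0.392 and 0.587 in Mr, an order in which SF lay between the other materials. It was lower in SF than in WF by −1.33 ± 0.16 (adjusted p = 0.00781) and higher in SF than in Mr by 1.67 ± 0.16 (adjusted p = 0.00091). HF33550 (chr9:6186564-6187842, minus strand, both domains) differed by −1.29 ± 0.25 (adjusted p = 0.0348), and HF04957 (chr12:15697520-15702785, methyltransferase domain alone) by −0.89 ± 0.17 (adjusted p = 0.0348). HF33550 reached an FPKM of 1 in 4 libraries, all of WF, so it passed the filter through the material where it was high and was likely to differ. HF33556 lost its call only without WF_EB_2, and the other 3 each lost theirs in 5 of 6 fits without a library. The count of 7 at EB fell to 4 without SF_EB_1, 3 without SF_EB_2 and 2 without WF_EB_2. Calls over all genes went from 2250 to 2047, 1110 and 872 in these fits. The count of 5 at ES fell to 2 without SF_ES_1 or WF_ES_3 and to 3 without SF_ES_2 or SF_ES_3. In that order, calls over all genes went from 2414 to 1075, 1380, 1386 and 1301.

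**Figure D2:**
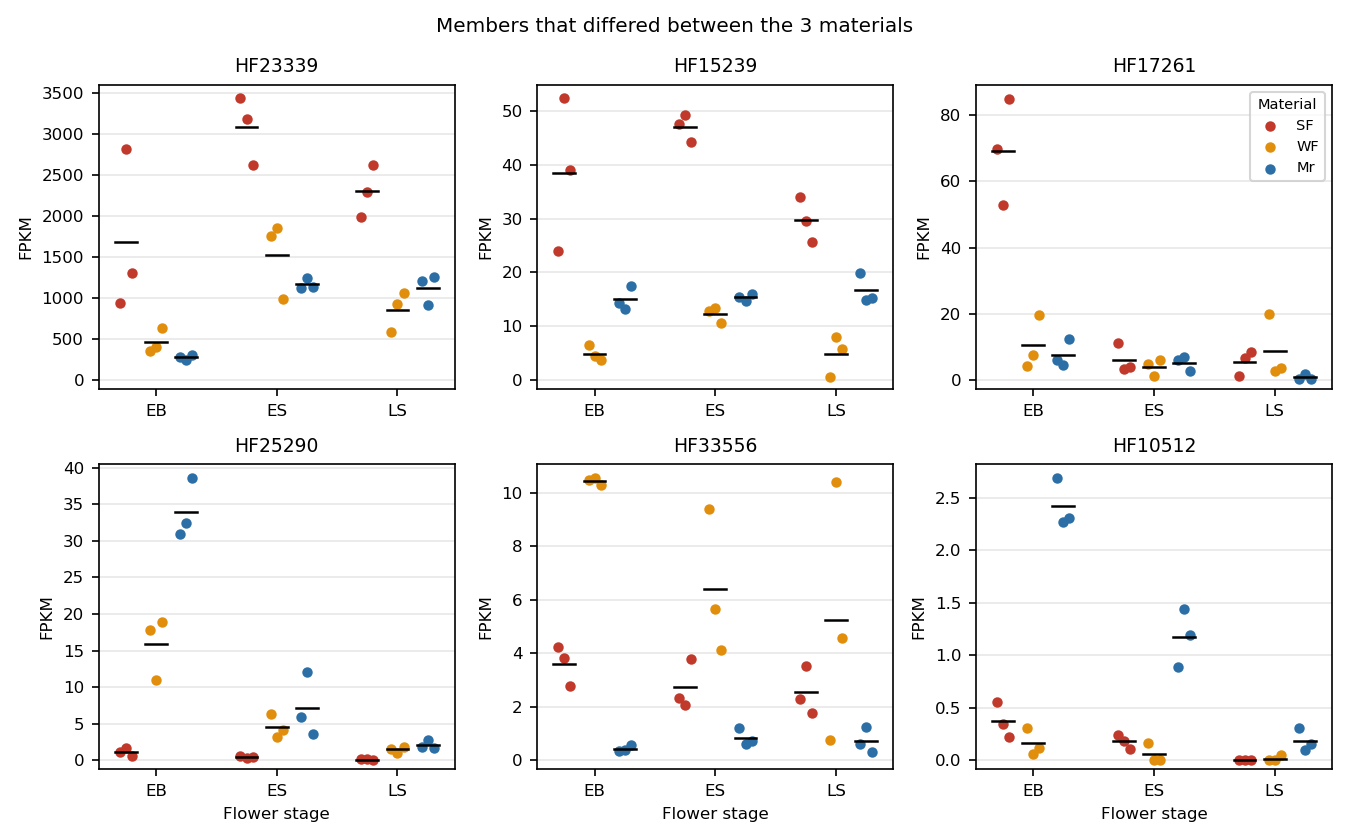
FPKM of HF23339, HF15239, HF17261, HF25290, HF33556 and HF10512 in each library by stage, with 1 point per library (n = 3 per group), a bar at the group mean and colours for SF, WF and Mr. HF23339 and HF15239 are highest in SF at all stages, HF17261 in SF at EB, HF25290 and HF10512 in Mr at EB, and HF33556 in WF at EB.

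The second question was how the fragrant progeny differed from standard M. robusta. More members differed here, as did more of all genes. At EB, 16 members passed (50%, background 41.0%), 12 higher in SF (background 22.1%) and 4 lower (background 18.9%). At ES, 19 members passed (59.4%, background 35.6%), 14 higher (background 18.8%) and 5 lower (background 16.8%). At LS, 11 members passed (34.4%, background 32.7%), 9 higher (background 16.4%) and 2 lower (background 16.3%). The median log2 difference of the members was 0.68, 0.46 and 0.19 at the 3 stages, while that of all genes was 0.0059, 0.0096 and −0.025. The LS count fell to 5 without SF_LS_2, 6 without Mr_LS_1 and 7 without Mr_LS_3, and was 12 without both mixed libraries. Transcripts of 42 chlorophyll a/b binding genes, which mark green tissue (41 above 0 in some library), summed to 7592 to 15540 FPKM in Mr and to 3704 to 8201 in SF and WF. Single genes of this list went both ways between SF and Mr. Of the 39 tested, the balloon stage had 5 called higher in SF and 14 lower (median log2 difference −0.27). The opening flower had 11 higher against 8 lower (median 0.20), and the late stage 16 against 8 (median 0.24). The list's most abundant gene, HF01786, averaged 8771 FPKM in Mr at ES against 2891 in SF. The part of green tissue in the differences of the O-methyltransferases was not tested. In whole flowers fewer cells of a type and less RNA per cell cannot be told apart.

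Besides the genes above, HF23341 had the largest positive difference between SF and Mr at ES. It lies between HF23342 and HF23339 (chr1:32212252-32213252, minus strand) and carries the methyltransferase domain alone. Its FPKM at ES was 49.4, 33.6 and 24.3 in SF, 17.6, 2.76 and 7.33 in WF, and 5.74, 0.732 and 7.18 in Mr. SF lay above all other libraries. The difference was 2.95 ± 0.62 against Mr (adjusted p = 0.0137) and 2.08 ± 0.60 against WF (adjusted p = 0.1). The call against Mr was lost without SF_ES_1, and the difference from WF passed without WF_ES_1 (2.66, adjusted p = 0.0394).

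HF29538 (chr17:6687354-6687981, methyltransferase domain alone) was ahead in SF at EB only. Its FPKM was 18, 52.4 and 26.2 in SF, 3.66, 3.97 and 14.4 in WF, and 6.77, 3.81 and 8.17 in Mr. At ES the materials met, at 38.4, 32.6 and 35.0 in SF, 35.9, 44.6 and 23.7 in WF, and 42.3, 44.6 and 37.3 in Mr. The EB difference was 2.11 ± 0.43 against Mr (adjusted p = 0.0121) and 2.09 ± 0.58 against WF (adjusted p = 0.0916). The ES differences were −0.22 ± 0.10 and 0.07 ± 0.23 and did not pass.

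HF10512, next to HF10511 on chromosome 5 (chr5:25719506-25720830, both domains), was higher in Mr than in the other materials. At EB it stood at FPKM values of 2.68, 2.27 and 2.30 in Mr, 0.549, 0.345 and 0.217 in SF, and 0.304, 0.059 and 0.119 in WF. It reached an FPKM of 1 in 5 libraries, all of Mr, so it passed the filter through the material where it was high and was likely to differ. The SF to Mr difference was −1.32 ± 0.13 at EB (adjusted p = 0.000949) and −0.88 ± 0.13 at ES (adjusted p = 0.00377). For WF the values were −1.56 ± 0.11 (adjusted p = 0.000345) and −1.04 ± 0.13 (adjusted p = 0.00391). HF10508, the third tested gene of that cluster, was lower in SF than in Mr at ES by −1.57 ± 0.35 (adjusted p = 0.0168), with 1.25, 0.423 and 1.78 in SF against 5.17, 7.76 and 3.27 in Mr. HF05636 was likewise lower, by −0.94 ± 0.22 (adjusted p = 0.0197). The call of HF10508 was lost in 2 of 6 fits without a library and that of HF05636 in 4 of 6.

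HF33550 and HF41650 were nearly absent from Mr. HF33550 reached an FPKM of 1 in 4 libraries, all of WF, and HF41650 in 3, of which 1 was SF and 2 were WF. Both thus passed the filter through groups where they were high and were likely to differ from Mr, mainly in WF. HF41650 (chr14:22117379-22126163) joins both domains to a 2-oxoglutarate-dependent dioxygenase domain, as HF41646 does. HF33550 was at 0 in 8 of the 9 Mr libraries and HF41650 in 7. In Mr_LS_2, a mixed library, they stood at 0.284 and 0.285. At ES, HF33550 was at 0.940, 0.963 and 0.761 in SF, and HF41650 at 0.859, 0.830 and 1.13. With a floor of 3 fragments over the 3 Mr libraries, these means were at least 17.7-fold and at least 33.2-fold higher in SF than in Mr. The adjusted p-values were 0.000985 and 0.00117.

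**Figure D3:**
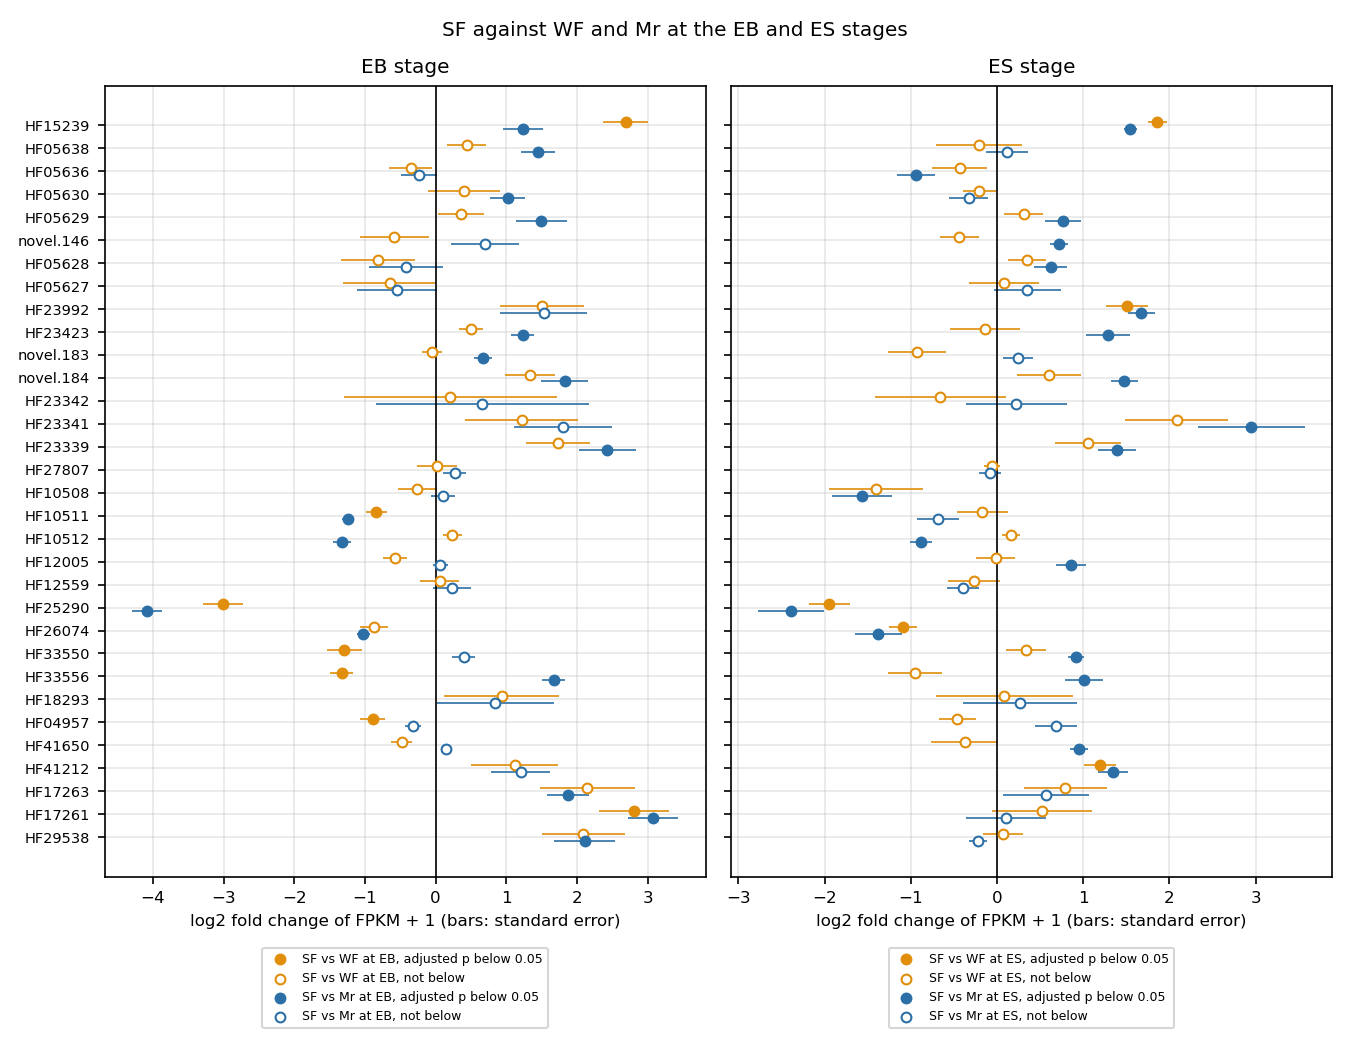
Log2 fold change of FPKM + 1 for each of the 32 tested O-methyltransferases between SF and WF and between SF and Mr, at EB (left) and ES (right). Bars are standard errors (n = 3 per group) and filled points mark an adjusted p below 0.05. HF25290 lies farthest to the left in both panels, and HF15239 is filled to the right in both. Both comparisons use the same SF libraries.

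The comparison of WF with Mr used the same Mr libraries. At EB, 13 members passed (40.6%, background 35.3%), 10 higher in WF (background 19.0%) and 3 lower (background 16.4%). At ES, 6 passed (18.8%, background 24.9%), 5 higher (background 12.5%) and 1 lower (background 12.4%). At LS, 6 passed (18.8%, background 22.9%), 3 higher (background 10.5%) and 3 lower (background 12.4%). Among the called members at EB and at ES, HF33556 had the largest difference, 3.0 ± 0.11 at EB (adjusted p = 6.49e-05) and 1.96 ± 0.29 at ES (adjusted p = 0.00638). HF33550 stood at 3.32, 1.85 and 1.71 in WF at EB and at 0 in all 3 Mr libraries, at least 55.8-fold higher in WF (adjusted p = 0.00144). It reached an FPKM of 1 in 4 libraries, all of WF, so it passed the filter through the material where it was high and was likely to differ. HF15239 was lower in WF than in Mr at EB by −1.45 ± 0.20 (adjusted p = 0.00293) and HF25290 by −1.08 ± 0.21 (adjusted p = 0.0105).

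HF04957 and HF12005 were higher in WF than in Mr at all 3 stages. HF04957 at LS stood at FPKM values of 24.2, 16.8 and 17.5 in WF, 7.21, 10.2 and 16.5 in SF, and 2.40, 3.79 and 4.05 in Mr, and HF12005 (chr5:43774214-43786458, both domains) at 3.47, 3.72 and 3.63 in WF, 2.55, 3.10 and 3.23 in SF, and 0.372, 0.912 and 0.639 in Mr. In each gene the Mr libraries lay below all SF and WF libraries at LS. The WF to Mr difference of HF04957 stood at 0.58 ± 0.15 in the balloon stage, 1.14 ± 0.17 at ES and 2.22 ± 0.23 at LS (adjusted p = 0.0256, 0.00684 and 0.00455). For HF12005 it was 0.64 ± 0.14, 0.88 ± 0.19 and 1.5 ± 0.17 (adjusted p = 0.0155, 0.0224 and 0.00534). The call of HF04957 at EB was lost in 4 of 6 fits without a library, and that of HF12005 in 3 of 6 at EB and 4 of 6 at ES. Whether the differences themselves changed between stages in WF was not tested. The count at LS fell to 2 without Mr_LS_1 or Mr_LS_3 and to 3 without WF_LS_3 or Mr_LS_2, that at ES to 3 without Mr_ES_2, and that at EB to 8 without Mr_EB_1.

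From the closed balloon to the opening flower (ES against EB), 21 members passed in Mr (65.6%, background 41.9%). Of these, 9 were higher at ES (background 23.2%) and 12 lower (background 18.7%). In WF, 4 members passed (12.5%, background 1.65%), all lower at ES (background 1.13%) and none higher (background 0.516%). In SF, 17 of the 32 members had an unadjusted p below 0.05, as did 5411 of all 29660 genes. No member passed there after adjustment (background 0.0%), and limma-voom on recovered fragments gave 0 as well. The order of these counts depended on the fit, since 1 fit of all 9 groups called 15 members in WF, 13 in Mr and 6 in SF. The 4 WF calls were lost whenever any 1 library was left out. The SF count reached 2 without SF_EB_2. Pectinesterases, which are abundant in pollen among other tissues (83 genes, 74 above 0 in some library), summed to 1548 to 1988 FPKM at EB and 2913 to 3683 at ES in Mr, and their part was not tested.

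All 4 members called lower in WF lay in the tandem cluster of 9 genes at chr1:20697674-20958582, of which 7 were tested. The FPKM of its newly assembled member (chr1:20928021-20930267, minus strand, methyltransferase domain alone) was 6.12, 7.17 and 6.35 in Mr at EB and 0.260, 0.172 and 0.275 at ES, and in WF it was 15, 15.8 and 21.6 at EB and 1.1603, 2.78 and 1.55 at ES. The fall was −2.61 ± 0.09 in Mr (adjusted p = 0.000211) and −2.73 ± 0.26 in WF (adjusted p = 0.0292). In SF the gene went from 19.0, 4.56 and 15.3 to 1.05, 1.18 and 0.874, a difference of −2.58 ± 0.50 that did not pass (adjusted p = 0.107). The stages did not overlap in any of the 3 materials.

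Its neighbours HF05628 and HF05627 were present almost only in buds. HF05628 reached an FPKM of 1 in 9 libraries, all at EB, and HF05627 in the same libraries and SF_ES_2. Both thus passed the filter through the stage where they were high and were likely to differ between stages. HF05629, also called in WF, reached an FPKM of 1 in 8 libraries, all at EB but SF_ES_1, and was likely to differ too. HF05628 stood at 4.33, 7.78 and 8.50 in Mr at EB, 7.81, 6.73 and 14.0 in WF and 10.9, 2.09 and 4.12 in SF. At ES it was at most 0.971 in any library. The fall in Mr was −2.89 ± 0.23 (adjusted p = 0.000963) and rested on 286 fragments at EB against 1 at ES. HF05627 fell by −3.46 ± 0.23 in Mr (adjusted p = 0.000668), from 151 fragments to 2, a 59.1-fold ratio with a counting interval of 16.1 to 493. In WF the changes were −3.02 ± 0.28 and −3.29 ± 0.44 (adjusted p = 0.0292 and 0.039). HF05627 is a short model, of 186 bases, so its level is less certain. HF05636 fell in Mr by −0.93 ± 0.19 (adjusted p = 0.013), from 10.5, 13.8 and 11 to 5.81, 4.36 and 7.11.

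HF05638, in the same cluster, did not follow its neighbours. It stood at FPKM values of 1.35, 2.23 and 1.59 in Mr at EB and 4.06, 4.18 and 3.66 at ES, a rise of 0.88 ± 0.14 (adjusted p = 0.00638). At LS it was 7.73, 13.7 and 17.2 in SF, 9.71, 8.22 and 17.4 in WF, and 3.53, 5.15 and 3.20 in Mr. The Mr libraries lay below all others there. The difference from Mr at LS was 1.44 ± 0.31 in SF (adjusted p = 0.0159) and 1.32 ± 0.31 in WF (adjusted p = 0.0326). The latter was lost without WF_LS_1, WF_LS_3 or any of the Mr libraries, and the former without SF_LS_2, Mr_LS_1 or Mr_LS_3.

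The remaining tested members were low or varied widely between replicates. HF18293 (chr10:36562303-36563987, both domains) stood at FPKM values of 10.6, 5.62 and 0.214 in SF at EB and 8.22, 1.62 and 16.5 at ES. It was called in Mr, where it rose by 1.31 ± 0.20 (adjusted p = 0.00532) from 1.87, 0.932 and 1.88 to 6.15, 4.97 and 4.69. HF27807 (chr4:21669195-21670981, both domains) fell in Mr by −0.74 ± 0.11 (adjusted p = 0.00519), from 1.46, 1.49 and 1.41 to 0.296, 0.716 and 0.430. In Mr it reached an FPKM of 1 in 3 libraries, all at EB, the stage where it was high, and was likely to differ. HF12559 (chr7:22947554-22949629, both domains) rose in Mr by 0.68 ± 0.15 (adjusted p = 0.0179), and its highest value was 8.18 in SF_LS_2 against 0.541 and 0.573 in the other SF libraries at LS. HF05630, of the chromosome 1 cluster, was above Mr in SF at EB by 1.02 ± 0.25 (adjusted p = 0.0214), with 1.34, 0.802 and 2.05 against 0.036, 0 and 0.485. It reached an FPKM of 1 in 3 libraries (SF_EB_1, SF_EB_3 and WF_EB_3) and 0 of Mr. It thus passed the filter through groups where it was high and was likely to differ from Mr. HF05629, HF05630, HF27807, HF12559 and HF18293 were outside the rule for described members and were chosen after their values were seen.

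**Figure D4:**
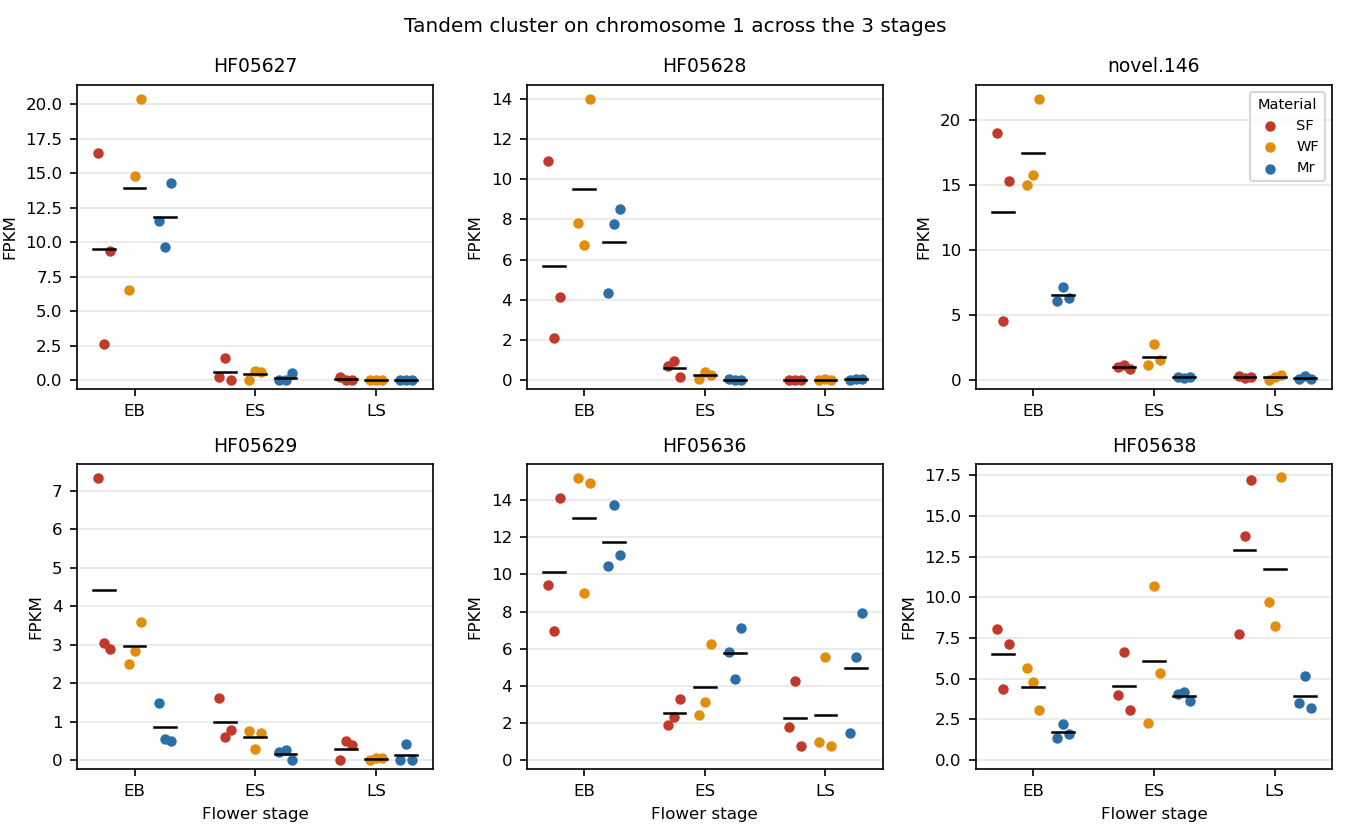
FPKM of 6 tested members of the chromosome 1 tandem cluster in each library by stage, with 1 point per library (n = 3 per group), a bar at the group mean and colours for SF, WF and Mr. HF05627, HF05628, the newly assembled gene and HF05629 drop from EB to near 0, while HF05638 is highest at LS in SF and WF.

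HF23339 and the newly assembled gene at chr1:31467617-31475760 were among the 9 members that rose at opening in Mr. HF23339 rose by 2.06 ± 0.12 (adjusted p = 0.000486) and the newly assembled gene by 1.23 ± 0.11 (adjusted p = 0.00123). HF29538 rose by 2.60 ± 0.25 (adjusted p = 0.00148) and HF23342 (chr1:32208608-32209230, dimerisation domain alone), from 7.16, 2.37 and 8.50 to 36.4, 23.5 and 28.7, by 2.23 ± 0.43 (adjusted p = 0.0108). In the other direction HF10511 fell by −1.58 ± 0.20 (adjusted p = 0.0032), HF25290 by −2.23 ± 0.39 (adjusted p = 0.00798) and HF04957 by −1.38 ± 0.16 (adjusted p = 0.00228). In SF the same step gave 1.02 ± 0.48 for HF23339 and −1.03 ± 0.17 for HF10511, neither past the threshold (adjusted p = 0.338 and 0.0907).

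Between the opening and the fully open flower (LS against ES), 9 members passed in SF (28.1%, background 19.3%), 1 higher at LS (background 9.58%) and 8 lower (background 9.73%). In WF no member passed (background 0.964%), and in Mr none passed (background 0.0%). With limma-voom both counts were 0 as well. Below an unadjusted p of 0.05 were 9 of the 32 members in WF and 8 in Mr. Over all 29660 genes these numbers were 6873 and 4494. A fit of all 9 groups called 9 members for SF, 8 for WF and 1 for Mr. The replicate block left 0 for SF. HF10511 in SF went from 52.5, 34.2 and 48.3 to 9.32, 9.94 and 6.14, a fall of −2.28 ± 0.23 (adjusted p = 0.0117). HF23342 fell by −2.53 ± 0.64 (adjusted p = 0.0461), HF23992 by −1.49 ± 0.19 (adjusted p = 0.0149) and HF41212 by −1.32 ± 0.16 (adjusted p = 0.0133). HF15239 fell by −0.65 ± 0.12 (adjusted p = 0.0251), and HF26074 alone rose, by 1.29 ± 0.15 (adjusted p = 0.0128). None of the 9 calls held in all fits that left out a library. The count was 0 without SF_ES_1 or SF_LS_2, 2 without SF_ES_3 and 10 without the mixed library SF_LS_1. Calls over all genes fell steeply as well in the fits that left 0, as given below for the methyl donor cycle. The WF count was 2 without WF_ES_2 and 1 without WF_LS_2.

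HF10511 also separated Mr from the other materials in the open flower. At LS it stood at FPKM values of 9.32, 9.94 and 6.14 in SF, 0.178, 5.73 and 6.09 in WF, and 30.04, 34.9 and 27.2 in Mr. Mr lay above all other libraries, Mr_LS_2 included. SF was lower than Mr by −1.76 ± 0.20 (adjusted p = 0.00263) and WF by −3.04 ± 0.71 (adjusted p = 0.0317). WF_LS_1 stood far below its replicates, and the WF call was lost without WF_LS_3 or any of the Mr libraries.

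Whether the stage changes differed between materials was tested as an interaction. Between SF and WF no member passed, either for ES against EB (background 0.0%) or for LS against ES (background 0.0303%). Below an unadjusted p of 0.05 were 6 of the 32 members in each test. Over all 29660 genes these numbers were 2184 and 1811. Between SF and Mr, 8 members passed for ES against EB (25%, background 9.23%) and 3 for LS against ES (9.38%, background 2.88%). Limma-voom gave 0 calls for both SF to WF interactions. HF29538 rose by 2.60 in Mr but by 0.26 in SF, a difference of −2.33 ± 0.47 (adjusted p = 0.0178). HF41650 went from 0.081, 0.154 and 0.116 to 0.859, 0.830 and 1.13 in SF while Mr stayed at or near 0, a difference of 0.80 ± 0.11 (adjusted p = 0.00515). It reached an FPKM of 1 in 3 libraries, all at ES in SF or WF. It thus passed the filter through groups where it was high and was likely to show this difference. Among the 7 called members that the rule for described members included, HF29538 and HF41650 held whichever library was left out. None of the 8 calls and none of the 3 passed in a fit of all 9 groups, where the adjusted p-values were 0.0697 for HF29538 and 0.191 for HF41650. The count of 8 fell to 2 without Mr_EB_1 or Mr_EB_2, to 5 without Mr_ES_3 and to 4 without SF_EB_3, Mr_EB_3, SF_ES_1, SF_ES_2, Mr_ES_1 or Mr_ES_2. The count of 3 fell to 0 without SF_ES_1, Mr_ES_1 or Mr_ES_3, to 1 without SF_LS_2, SF_LS_3, Mr_LS_1 or Mr_LS_2, and was 7 without SF_LS_1 and 7 without both mixed libraries.

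Of 29 genes of the methyl donor cycle, which makes and recycles S-adenosyl-L-methionine, 28 were tested. None passed between SF and WF at any stage (background 7.59%, 8.14% and 3.35% at EB, ES and LS). Below an unadjusted p of 0.05 were 6, 4 and 3 of the 28, and 7476, 6585 and 4458 of all 29660 genes. Limma-voom gave 0 calls. The median log2 differences were −0.23, −0.01 and 0.20 at EB, ES and LS. Against Mr at ES, 7 were higher and 4 lower in SF, 39.3% of the list beside a background of 35.6%, so the share was near that of all genes. HF00833, an S-adenosylhomocysteine hydrolase with the highest mean of the list, averaged 842 ± 60.5 FPKM in SF (SD, n = 3), against 762 ± 92.3 in WF and 472 ± 64.8 in Mr, and was higher in SF than in Mr by 0.84 ± 0.15 (adjusted p = 0.00833). HF17409, a serine hydroxymethyltransferase, differed by 1.26 ± 0.10 (adjusted p = 0.000415) and HF18323, a methylenetetrahydrofolate reductase, by 0.95 ± 0.10 (adjusted p = 0.001). From ES to LS in SF, 12 of the 28 fell and 4 rose, and the fallers included 6 of 8 S-adenosylmethionine synthetases (background 9.73% lower and 9.58% higher). Of these 16 calls 0 were left without SF_ES_1, without SF_LS_2 or with the replicate block, 1 without SF_ES_3 and 10 without SF_LS_3. Over all genes the calls dropped from 5728 to 6, 7 and 2 in the first 3 of these fits.

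Of 11 caffeoyl-CoA type genes, which methylate lignin precursors, 7 were tested, and at ES HF42791 was higher in SF than in WF by 2.65 ± 0.45 (adjusted p = 0.021), with a mean FPKM of 61.4 ± 23.3 against 9.48 ± 5.08 (SD, n = 3), while HF35285 was lower by −1.58 ± 0.34 (adjusted p = 0.0464). The study listed HF42791 and HF35285 under O-methyltransferase activity after examining these same libraries, so their differences at ES are not independent evidence. The most abundant of the caffeoyl-CoA type genes, HF22635, stood at 312 ± 31.5 in SF against 493 ± 275 in WF and 232 ± 33.5 in Mr, and it passed in neither comparison. Against Mr at ES, HF35729 was higher in SF by 0.77 ± 0.07 (adjusted p = 0.000722) and HF18869 lower by −1.03 ± 0.30 (adjusted p = 0.0426). Of 36 SABATH carboxyl methyltransferases, which make methyl esters, 16 were tested. None passed between SF and WF at ES (background 8.14%), with 0 calls by limma-voom. Below an unadjusted p of 0.05 were 2 of the 16 and 6585 of all 29660 genes. Against Mr at ES, 5 were higher and 2 lower in SF (43.8%, background 35.6%). HF13510 led that family, with 2145 ± 119 in SF against 2009 ± 647 in WF and 1137 ± 193 in Mr, higher in SF than in Mr by 0.93 ± 0.21 (adjusted p = 0.019). HF31108 and HF44210 had its largest called differences from Mr, 1.11 ± 0.28 (adjusted p = 0.0267) and 1.04 ± 0.12 (adjusted p = 0.00139).

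Phenylalanine ammonia-lyases open the phenylpropanoid pathway, which feeds many O-methyltransferases. Of 8 genes, 6 were tested, and none passed between SF and WF at any stage, with 0 calls by limma-voom. Below an unadjusted p of 0.05 at EB, ES and LS were 1, 1 and 0 of the 6. Over all 29660 genes these numbers were 7476, 6585 and 4458. For the adjusted calls the backgrounds were 7.59%, 8.14% and 3.35%, shares at which a list of 6 genes can show no call. Against Mr at ES 2 were lower in SF (33.3%, background 16.8%). HF01560 stood at 18.4 ± 12.1 in SF against 5.25 ± 1.47 in WF and 244 ± 54.03 in Mr, and HF04849 at 14.8 ± 6.40, 10.8 ± 8.45 and 201 ± 44.8 (SD, n = 3). The SF to Mr differences were −3.86 ± 0.51 (adjusted p = 0.00267) and −3.75 ± 0.36 (adjusted p = 0.000833). HF24990, the most abundant, was at 404 ± 97.96 in SF against 324 ± 189 in WF and 420.4 ± 24.98 in Mr, and it passed in neither comparison.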

How the data were processed

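RNA of whole flowers was sequenced as paired-end reads, which the authors aligned to the HFTH1 assembly of the apple genome (version 1.0). The aligner and the fragment counter were not given in the sources used here, and the submitters' processing notes name StringTie 1.3.3b and DESeq2 1.16.1. The deposited values were FPKM per gene and library (fragments per kilobase of the deposited gene length, scaled per library). In every library the scale was proportional to a median-of-ratios size factor, not to total fragments. That factor is the median over genes of a library's fragments relative to their geometric mean over libraries. The scale was 0.886 to 1.10 times the fragments on genes. Fragments were recovered from the FPKM steps, and all 771147 values under 1000 fragments were whole within 0.05 (100%). Per-sample columns left unused numbered 0.

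The filter kept genes reaching an FPKM of 1 in 3 or more libraries, and these were tested with limma 3.58.1 (trend) in R 4.3.3 on log2(FPKM + 1), which understates changes of low genes. Each of 15 pairwise comparisons used the groups compared, and 4 interactions used the groups involved. P-values were adjusted by the Benjamini-Hochberg method over all genes tested, with a threshold of 0.05. Calculations used numpy 2.4.6, pandas 2.3.3 and matplotlib 3.10.9 under Python 3.11.15, and the fit was tested on simulated data. Intervals and floors (3 fragments) cover counting error only.

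Described members had a group mean FPKM of at least 10, were called in at least 5 pairwise comparisons, were named by the study, or had a largest called change in a comparison. Members and lists were chosen with earlier results of these data known. Results were recomputed with no filter, a replicate block, a pseudocount of 0.1, a fit of all 9 groups, rescaling by total fragments, limma-voom on recovered fragments and each library left out. Leaving out both mixed libraries was chosen after seeing the data. Same-numbered libraries deviated together in 0 of the 15 comparisons (every correlation above 0.1), so the numbers were not treated as pairs. In SF against WF at ES and in LS against ES in WF and in Mr, 2 correlations were above 0.1. A pairing in part of the libraries is thus not excluded. Reads shared between near-identical copies could not be checked.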

Additional observations from a re-analysis of the deposited data

Results flagged for a closer look

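The change from EB to ES differed between SF and Mr, by an interaction contrast in limma with p-values adjusted over all genes tested, for 8 members (25%, background 9.23%). The difference (SF minus Mr, log2) was −2.33 for HF29538 (adjusted p = 0.0178), −2.97 for HF17261 (adjusted p = 0.0209), −1.67 for HF10508 (adjusted p = 0.034) and −1.33 for HF05638 (adjusted p = 0.0454). HF05630, outside the rule for described members and chosen after its values were seen, differed by −1.35 (adjusted p = 0.0436). In the other direction it was 0.80 for HF41650 (adjusted p = 0.00515), 0.79 for HF12005 (adjusted p = 0.0375) and 0.9999 for HF04957 (adjusted p = 0.04999). None of the 8 calls passed in a fit of all 9 groups. Of 12 fits without a library, the calls of HF04957 and HF05638 were lost in 10, those of HF10508 and HF12005 in 8 and that of HF17261 in 3. Those of HF29538 and HF41650 were lost in 0. HF05630 and HF41650 passed the filter only through groups where they were high.

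The change from ES to LS differed between SF and Mr for 3 members in the same kind of test (9.38%, background 2.88%). The difference was −1.44 for HF23992 (adjusted p = 0.0189), −1.20 for HF41212 (adjusted p = 0.029) and −0.88 for HF41650 (adjusted p = 0.0478). Of 12 fits without a library, these calls were lost in 3, 7 and 11, and none passed in a fit of all 9 groups. The late stage of both materials holds a mixed library.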

How the results depend on the processing

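Values are counts of members called. Calls over all genes also changed with the fit. Between SF and WF they went from 2250 at EB and 993 at LS to 4729 and 3446 in a fit of all 9 groups. Without the filter they were 1911 and 901, and with the replicate block 728 and 0. Limma-voom called 805 at LS. A fit of all 9 groups gave 13 between SF and WF at EB and 6 at LS, 11 between WF and Mr at LS, 6 for ES against EB in SF, 15 in WF and 13 in Mr, 8 for LS against ES in WF and 1 in Mr, and 1 for each interaction between SF and Mr, in both cases a member not called before (0 shared). Without the filter, 4 were called between SF and WF at EB, 2 at LS, 3 between WF and Mr at LS, 0 for ES against EB in WF and 4 for the interaction of ES against EB. A pseudocount of 0.1 gave 2 for ES against EB in WF and 1 for the interaction of LS against ES. Limma-voom gave 0 between SF and WF at LS and 0 for that interaction, rescaling by total fragments gave 1 for LS against ES in WF, and leaving out both mixed libraries gave 7 for the interaction of LS against ES. Rescaling moved the median of all genes to 0.118 (log2) between WF and Mr at ES, −0.129 for ES against EB in Mr and 0.152 for the interaction of ES against EB. Rescaling replaced the size-factor scale of the deposited values by total fragments. Why the 2 scales differed between groups was not tested.

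The replicate number was also used as a block, though the numbers were not treated as pairs. It gave 4 between SF and WF at EB, 0 at LS and 2 between WF and Mr at LS. For LS against ES in SF and for ES against EB in WF it gave 0 each. For the interactions between SF and Mr it gave 3 and 1.

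Leaving out each library in turn gave 2 to 7 between SF and WF at EB, 2 to 6 at ES and 0 to 1 at LS. Over all genes these fits called 872 to 2047, 1075 to 1988 and 263 to 753. Between SF and Mr, leaving out a library gave 13 to 19, 14 to 19 and 5 to 13 members. Between WF and Mr it gave 8 to 17, 3 to 7 and 2 to 7. For ES against EB it gave 0 to 2 in SF, 0 to 0 in WF and 18 to 21 in Mr, and for LS against ES 0 to 10, 0 to 2 and 0 to 0. The interactions with Mr gave 2 to 7 and 0 to 7, and those with WF 0 to 0. HF41212 between WF and Mr at EB, not called at 0.08 with all libraries, turned to −0.48 (adjusted p = 0.0274) without WF_EB_1 and ranged up to 0.42 without WF_EB_3.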
